A study of Homo sapiens with 2 samples.

Results

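The fibroblast growth factor (FGF) receptors and 5 of their partners were examined in the RNA of a gefitinib-resistant lung adenocarcinoma line, HCC827 ZDR3, against parental HCC827. The 10 genes were taken by symbol: FGFR1, FGFR2, FGFR3, FGFR4, FGFRL1, FGF2, FGFBP1, FRS2, FRS3 and KLB. Each had 1 row among the 20985 genes measured. HCC827 is an established cell line whose growth depends on a mutated, active EGFR, and gefitinib blocks the EGFR tyrosine kinase. Both groups derive from that line, and whether ZDR3 kept the mutation was not measured here. HCC827 ZDR3 came from HCC827 cells grown in gefitinib, at 10 nM for 1 month and then at concentrations that were raised 3-fold each month up to 1 µM, and 3 colonies are mentioned at the end of that selection. Whether the drug was in the medium at harvest, and whether ZDR3 grew from 1 of those colonies, is not stated in the labels. Each group held 1 library of polyadenylated RNA, so no difference has a replicate check and no p-value is given. Every difference below is one between these 2 libraries.

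FGF receptors are membrane tyrosine kinases that bind FGF ligands together with heparan sulfate chains on the cell surface. The docking proteins FRS2 and FRS3 link the active receptors to the RAS and ERK cascade and to PI3K, which the EGF receptor also drives. Klotho proteins serve as co-receptors for the endocrine FGFs. In lung cancer cells, FGF receptors are known as one of the routes that can keep this cascade active when EGFR is inhibited.

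The ZDR3 library held 243549875 gene reads and the parental library 257192599, with all read numbers inferred from the deposited values. Levels are normalised reads, and 1 unit equals 138 reads of the ZDR3 library and 143 reads of the parental library. They are not divided by gene length. The log2 ratio sets ZDR3 over parental, with 1 unit added to each level beforehand, and a gene with a level of at least 1 in either library was called expressed. Of the 10 markers of a lung adenocarcinoma line, 9 were expressed in both libraries. EGFR was at 7182 in the ZDR3 and 6662 in the parental library. By contrast, 7 of the 9 were at least 2-fold lower in ZDR3 (beside 7.66% of all genes expressed in both libraries). The epithelial adhesion genes CDH1, at 146 in ZDR3 and 1271 in parental cells, and EPCAM, at 62.4 and 527, were among them. The lung transcription factor NKX2-1 was lower, at 9.33 in ZDR3 and 95.0 in parental cells, and the lung protease NAPSA was at 6.11 and 27.5. Summed levels of 10 leukocyte markers were 2.04 in ZDR3 and 2.63 in parental cells, those of 10 fibroblast markers 1.998 and 9.60, and those of 9 endothelial markers 1.62 and 2.81. Among these, T and B cell genes CD3E, CD3D and MS4A1 and fibroblast genes COL3A1, THY1 and POSTN had 0 reads in both libraries. Others had reads: CD79A 141 in ZDR3 and 41 in parental cells, PTPRC 32 and 0, CD14 28 and 268, COL1A1 242 and 1308, TIE1 160 and 48, and ROBO4 15 and 225. The lower line markers go with every difference below, and their part in it was not tested.

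Most kinase receptors were higher in ZDR3, and the ligand carrier FGFBP1 was lower. Of the 10 genes, 8 were expressed. FGFR1, FGFR3 and FGFR4 were at least 2-fold higher (3 genes, beside 10.6% of all 13777 expressed genes), and FGFBP1 was at least 2-fold lower (1 gene, beside 9.68%). FGFBP1 passed the minimum level through the parental library alone, and so had to be lower in ZDR3. Over all expressed genes the median log2 ratio was -0.03. The median of the 4 expressed receptors was 2.58, and that of the 4 expressed partners -0.33. Over the 3 partners that passed in both libraries the median was -0.15, with 0 lower by the 2-fold limit (7.66% of all such genes). Since the libraries are bulk RNA, a larger share of cells with a transcript and more transcript per cell cannot be told apart.

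FGFR1, a receptor for FGF2 and many other FGFs, had 279015 reads in the ZDR3 library, against 10202 in the parental library. Its level was 2028 in ZDR3 and 71.4 in parental cells, a log2 ratio of 4.81 and a plain ratio of 28.4. The exact 95% counting interval of that ratio was 27.84 to 28.96. Such intervals cover counting error only, and the spread between cultures is unknown. By log2 ratio FGFR1 was in place 46 from the top among the 13777 expressed genes.

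FGFR4, the receptor that pairs with KLB for the endocrine ligand FGF19, was at 388 in ZDR3 and 87.4 in parental cells. The log2 ratio was 2.14 and the plain ratio 4.44 (counting interval 4.36 to 4.53), which put it in place 417 from the top. FGFR3 was at 101 in ZDR3 and 11.6 in parental cells, a log2 ratio of 3.01, with a plain ratio of 8.69 (8.26 to 9.15) and place 192. All 3 receptors were thus higher in ZDR3, by steps that decreased in the order FGFR1, FGFR3 and FGFR4. The 3 counting intervals did not overlap, but they leave out the spread between cultures, so the order has no replicate check.

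FGFR2 was the kinase receptor that did not share this direction. It had 18 reads in ZDR3 and 78 in parental cells, levels of 0.131 and 0.546, and was therefore below the minimum level in both. Its plain ratio of 0.240 (0.135 to 0.404) rests on these few reads. FGFRL1, a receptor that binds FGFs but has no tyrosine kinase domain, was at 64.2 in ZDR3 and 40.4 in parental cells. Its plain ratio was 1.59 (1.54 to 1.64) and its log2 ratio 0.66, under the 2-fold limit.

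**Figure D1:**
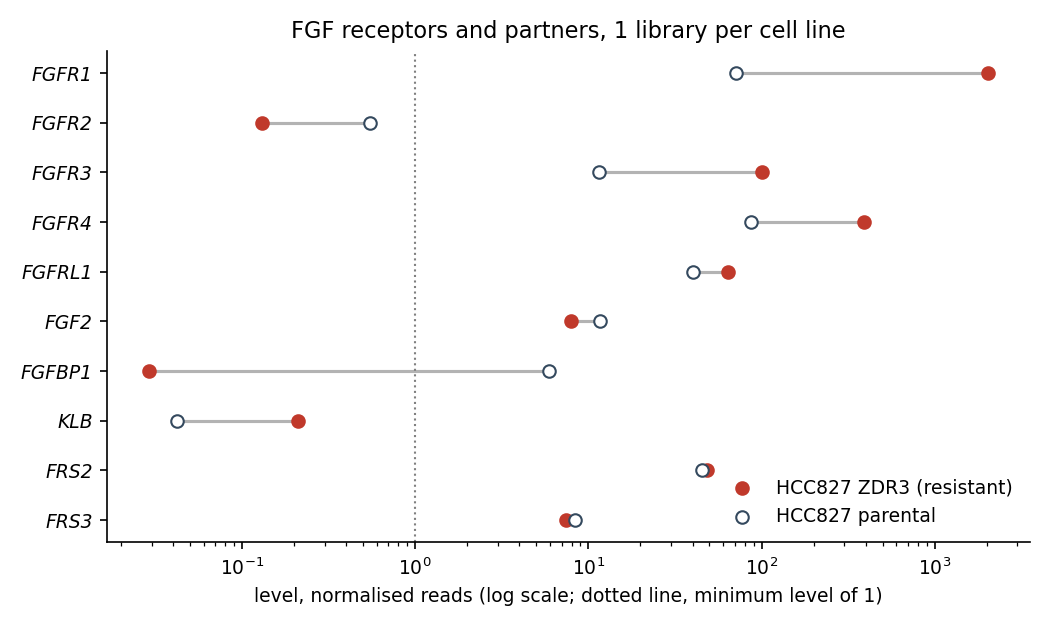
Levels of the 10 genes in normalised reads (log axis) in HCC827 ZDR3 (filled) and parental HCC827 (open), 1 library each, with a grey line joining both values of a gene and a dotted line at the minimum level of 1. FGFR1 spans 2028 in ZDR3 and 71.4 in parental cells, FGFBP1 spans 0.0291 and 5.94, and FGFR2 and KLB lie below 1 in both.

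To set the receptors against each other, levels were divided by the total exon length of each gene in GENCODE. Per kb of exon FGFR1 was at 146 in ZDR3 and 5.16 in parental cells, and FGFR4 at 80.4 and 18.1. FGFR3 was at 20.8 in ZDR3 and 2.39 in parental cells, FGFRL1 at 15.5 and 9.74, and FGFR2 at 0.0173 and 0.0720. The order per kb in ZDR3 was FGFR1, FGFR4, FGFR3, FGFRL1 and FGFR2, whereas in parental cells it was FGFR4, FGFRL1, FGFR1, FGFR3 and FGFR2. No spread over cultures is known for any step of either order.

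The 4 kinase receptors together reached 248 per kb in ZDR3 and 25.7 per kb in parental cells, a ratio of 9.63. FGFR1 made up 59.1% of that sum in ZDR3 and 20.1% in parental cells. FGFR4 made up 32.5% in ZDR3 and 70.4% in parental cells, while FGFR3 held 8.38% and 9.29%. The leading receptor per kb was thus FGFR1 in ZDR3 and FGFR4 in parental cells. Total exon length counts every annotated exon, 13.8 kb for FGFR1, so that its share depends on the length used. With the longest coding transcript, 6.05 kb for FGFR1, its share was 69.5% in ZDR3 and 27.7% in parental cells, and the leading receptor of each library stayed the one named above. By that length the parental order of FGFR1, at 11.8 per kb, and FGFRL1, at 11.1, was the reverse of the one given. Against all expressed genes with a length, FGFR1 exceeded 97.4% per kb in ZDR3 and 43.4% in parental cells. FGFR4 exceeded 94.4% and 73.3%.

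**Figure D2:**
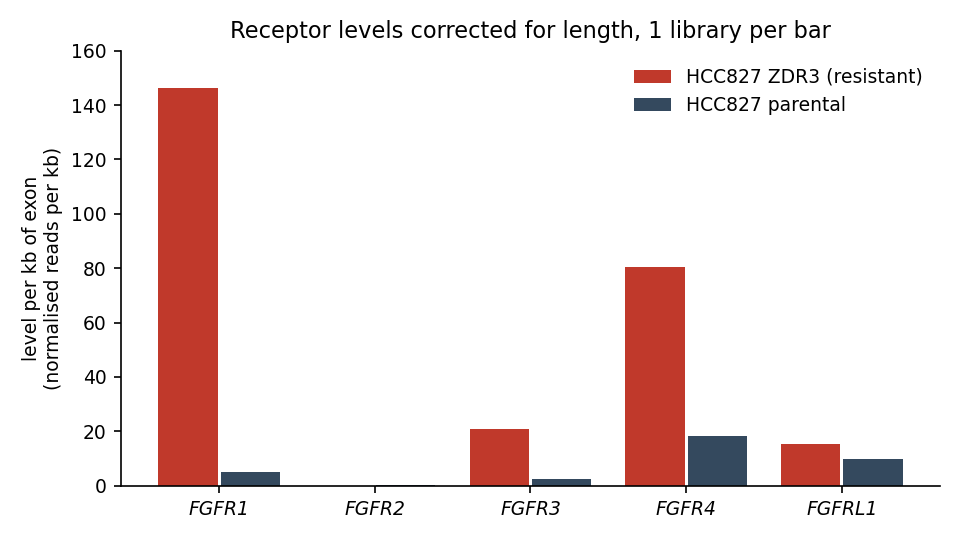
Levels of the 5 receptor genes per kb of exon (normalised reads per kb, linear axis) in HCC827 ZDR3 (left bar) and parental HCC827 (right bar), 1 library per bar. FGFR1 stands at 146 in ZDR3 and 5.16 in parental cells and FGFR4 at 80.4 and 18.1, while the FGFR2 bars, at 0.0173 and 0.0720, are too low to see.

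The ligand and its carrier had lower levels in ZDR3. FGF2, a ligand without a classical secretion signal, had 1097 reads in ZDR3 and 1670 in parental cells. Its level was 7.97 in ZDR3 and 11.7 in parental cells, a plain ratio of 0.682 (0.631 to 0.736) and a log2 ratio of -0.50, which is inside the 2-fold limit. In GENCODE 11.9% of the exon bases of FGF2 overlap NUDT6 on the opposite strand. The strand setting is not given in the sources used here, so reads of the pair cannot be told apart there. NUDT6 was at 16.2 in ZDR3 and 14.0 in parental cells.

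FGFBP1, a secreted protein that releases FGFs from the matrix and carries them to their receptors, had 4 reads in ZDR3 and 848 in parental cells. The levels were 0.0291 in ZDR3 and 5.94 in parental cells, and the plain ratio put it 204-fold lower in ZDR3 (counting interval 79.5 to 751). The log2 ratio of -2.75 understates this, because the added unit exceeds the ZDR3 level. It was -5.55 with 0.1 added and -1.12 with 5 added. KLB, the klotho co-receptor of FGF19 and FGF21, had 29 reads in ZDR3 and 6 in parental cells. Both levels, 0.211 in ZDR3 and 0.0420 in parental cells, were below the minimum, and the plain ratio of 5.02 had a counting interval of 2.05 to 14.8.

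Transcripts of both docking proteins were nearly level between the libraries. FRS2 was at 48.6 in ZDR3 and 45.2 in parental cells (plain ratio 1.08, counting interval 1.04 to 1.11). FRS3 was at 7.45 in ZDR3 and 8.39 in parental cells (0.888, 0.816 to 0.966). In GENCODE 4.62% of the exon bases of FRS3 overlap PRICKLE4 on the opposite strand, where reads cannot be told apart. PRICKLE4 was at 4.37 in ZDR3 and 5.89 in parental cells. Per kb FRS2 stood at 6.72 in ZDR3 and 6.24 in parental cells, above FRS3 at 2.61 and 2.93. The log2 ratios were 0.10 for FRS2 and -0.15 for FRS3. These transcripts therefore differed far less between the libraries than those of FGFR1, FGFR3 and FGFR4.

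Neighbouring genes were set beside each of the 10 genes, to show whether the stretch of chromosome around it differed between the libraries as a whole. FGFR1 on chromosome 8 had 20 expressed neighbours, 10 on each side, with a median log2 ratio of -0.16. None of the 20 reached FGFR1, which exceeded their median by 4.96. The nearest expressed genes were LETM2, at 5.79 in ZDR3 and 6.70 in parental cells (-0.18), and TACC1, at 128 and 98.5 (0.37). The highest neighbour was at 1.11 and the lowest, C8orf4, at -5.55. LETM2 lies on the opposite strand and shares 0.997% of the exon bases of FGFR1.

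FGFR3 on chromosome 4 exceeded the median of its 20 neighbours (-0.28) by 3.29, and none of them reached it. TACC3, beside it, was at 80.1 in ZDR3 and 214 in parental cells (-1.41), and LETM1 on the other side had a log2 ratio of 0.20. FGFRL1 lies within this window, 10 expressed genes away. FGFR4 on chromosome 5 differed from both: 18 of its 20 neighbours had ratios above 0, their median was 0.60, and 5 were at least 2-fold higher. FGFR4 exceeded that median by 1.54, and 1 neighbour, CDHR2 at 4.53, was above it. Its nearest expressed neighbours were ZNF346 (0.66) and NSD1 (0.10).

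FGFBP1, also on chromosome 4, was 2.45 below the median of its neighbours (-0.30), and none had a lower log2 ratio. Its nearest expressed neighbour on one side, PROM1, had 0 reads in ZDR3 and 331 in parental cells. That made PROM1 at least 106-fold lower against a floor of 3 reads in the ZDR3 library. This bound lies inside the counting interval of FGFBP1 (79.5 to 751), so by plain ratio PROM1 may be as low or lower. The log2 ratio of PROM1, -1.73, is shrunk by the added unit. FAM200B on the other side was at 6.05 in ZDR3 and 10.4 in parental cells (-0.69). For the other genes the medians were -0.33 around FGF2, 0.05 around FRS2, -0.34 around FRS3, -0.62 around KLB, -0.07 around FGFR2 and -0.28 around FGFRL1. With 5 or 20 neighbours on each side, the distance from the median was 4.90 and 4.94 for FGFR1, 3.32 and 3.17 for FGFR3, 1.54 and 1.64 for FGFR4, and -2.45 and -2.52 for FGFBP1. DNA copy number was not measured in these libraries.

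**Figure D3:**
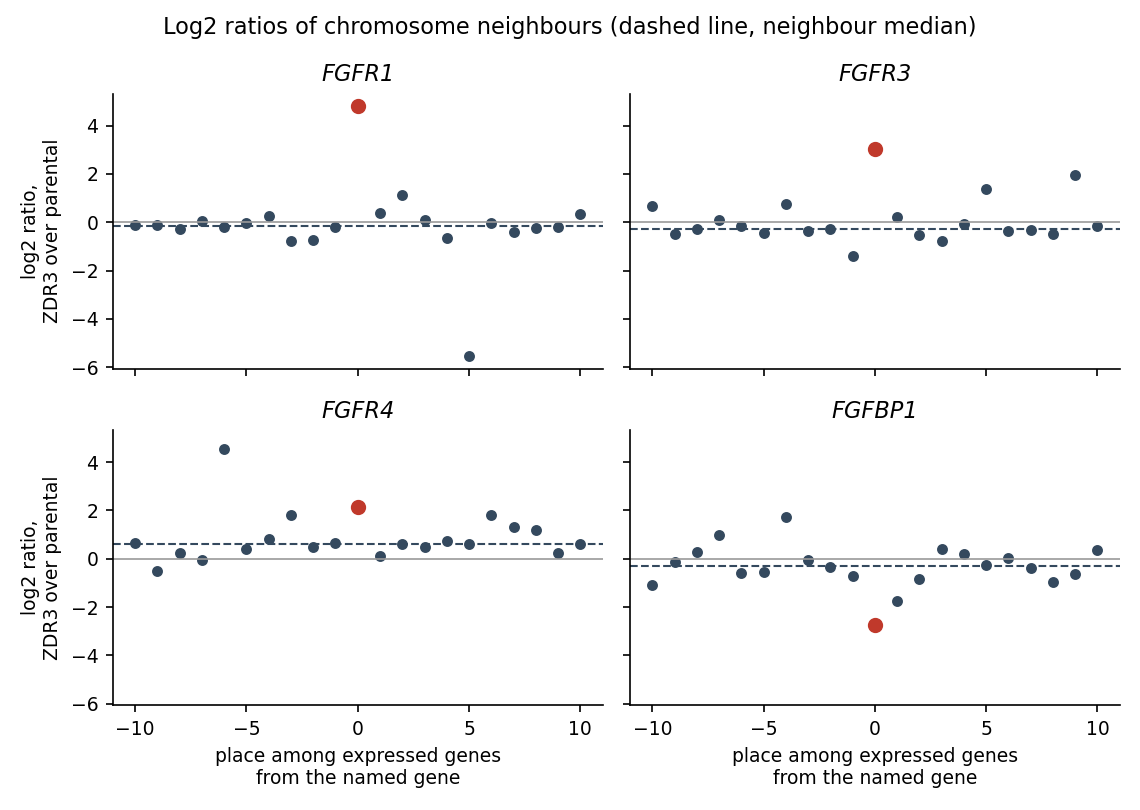
Log2 ratios, ZDR3 over parental, of 10 expressed neighbours on each side (dark) of FGFR1, FGFR3, FGFR4 and FGFBP1 (red, at place 0), in order along the chromosome, with the neighbour median as a dashed line. FGFR1 and FGFR3 lie above all 20 neighbours and FGFBP1 below all 20, while around FGFR4 the median itself is 0.60. The added unit shrinks the ratios of weakly expressed genes, such as PROM1 beside FGFBP1.

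Promoter windows of 3 of the 4 genes that passed the 2-fold limit are shown, because they differ in base composition. They are from RefSeq on GRCh38.p14 and run from 250 bases before to 50 bases after the annotated start, 5′ to 3′ on the gene's strand. GC boxes (GGGCGG on either strand) are in capitals. Windows were found for 9 of the 10 genes (all but FGFR1), 14 windows in all since FGFR2 and FGFR4 have several starts. FGFR3 is on the plus strand at chr4:1793043-1793342, FGFR4 on the plus strand at chr5:177086665-177086964 (the upstream of its 2 windows) and FGFBP1 on the minus strand at chr4:15938691-15938990.
FGFR3: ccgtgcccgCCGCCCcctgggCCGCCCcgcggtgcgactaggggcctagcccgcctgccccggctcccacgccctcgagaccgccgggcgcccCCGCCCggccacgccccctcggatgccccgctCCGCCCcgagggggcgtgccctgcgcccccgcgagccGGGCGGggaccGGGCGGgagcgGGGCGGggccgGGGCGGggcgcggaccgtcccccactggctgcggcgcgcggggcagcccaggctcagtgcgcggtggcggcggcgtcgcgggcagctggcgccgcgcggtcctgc
FGFR4: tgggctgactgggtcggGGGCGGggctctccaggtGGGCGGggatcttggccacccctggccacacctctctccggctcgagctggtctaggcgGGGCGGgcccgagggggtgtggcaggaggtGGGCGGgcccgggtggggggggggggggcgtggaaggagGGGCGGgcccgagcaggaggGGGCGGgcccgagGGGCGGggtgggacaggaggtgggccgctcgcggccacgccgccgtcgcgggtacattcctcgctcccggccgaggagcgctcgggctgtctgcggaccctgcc
FGFBP1: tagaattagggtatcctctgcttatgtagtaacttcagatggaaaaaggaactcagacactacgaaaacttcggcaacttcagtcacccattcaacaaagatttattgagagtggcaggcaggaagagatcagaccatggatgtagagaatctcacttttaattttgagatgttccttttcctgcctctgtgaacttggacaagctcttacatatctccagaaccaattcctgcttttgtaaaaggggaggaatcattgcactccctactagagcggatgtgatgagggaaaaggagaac
The FGFR3 window holds 86.3% G and C with 51 CG dinucleotides, and that of FGFR4 78.7% with 30. The FGFBP1 window holds 42.0% with 3 CG dinucleotides, against medians of 58.7% and 14 over 35116 windows. GC boxes matched 8 times in the FGFR3, 7 times in the FGFR4 and 0 times in the FGFBP1 window, and 45% of all windows hold at least 1. The downstream FGFR4 window had 57.3% G and C and 0 GC boxes. Among the genes that were not called, G and C made up 77% in FRS3, 74.7% in FGF2, 68.3% in FGFRL1 and 61% in FRS2. These windows held 6, 3, 4 and 3 GC boxes in that order. FGFR2 windows ranged from 47.3% to 79.3%, and the KLB window had 42.3% and 0 GC boxes. Whether composition goes with direction was not tested.

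AP-1 is the motif of the JUN family that the series title names. A broad form of it, TGANTCA with any base at N, was searched on both strands as well. This form had 0 matches in the 14 windows of these genes, none of them of FGFR1, and 7.71% of all windows hold it. The E-box CAGGTG, bound by ZEB repressors, matched once in the upstream FGFR4 window, where it shares 1 base with a GC box, and once in an FGFR2 window. It is in 20.6% of all windows. The TEAD motif GGAATG matched once in the upstream FGFR4 window and once in each of 2 FGFR2 windows, against 14% of all windows. These are matches of letters in short windows and say nothing about binding.

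Among the other secreted ligands, FGF5 stood out by size. Of 17 listed genes 3 were expressed, of which 1 was higher by the 2-fold limit (10.6% of all expressed genes) and 0 lower (9.68%), and their median log2 ratio was 0.17. FGF5, a ligand of FGFR1 known for ending hair growth, had 14009 reads in ZDR3 and 198 in parental cells. Its level was 102 in ZDR3 and 1.39 in parental cells, a log2 ratio of 5.43 and a plain ratio of 73.5 (63.8 to 84.9). Per kb FGF5 was at 17.0 in ZDR3, above FGF2 at 1.18. In parental cells the order was the opposite, with FGF5 at 0.231 and FGF2 at 1.73 per kb.

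FGF1, which can bind every FGF receptor, was at 1.00 in ZDR3 and 1.64 in parental cells (log2 ratio -0.40). FGF7, a ligand of the epithelial form of FGFR2, was at 2.27 in ZDR3 and 1.91 in parental cells (0.17). FGF7 has partial copies elsewhere in the genome, so its few reads are uncertain. Of the 17 genes 7 had 0 reads in both libraries. FGF19, the ligand that uses KLB, had 4 reads in ZDR3 and 12 in parental cells. The FGF homologous factors act inside the cell and do not signal through the receptors in the usual way. Of 4 listed, 2 were expressed and neither reached 2-fold, with FGF13 at 14.4 in ZDR3 and 26.4 in parental cells (-0.83) and FGF11 at 1.84 and 3.41 (-0.64).

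Co-receptors and surface partners had a median log2 ratio of 1.41 over 13 expressed of 20 listed genes, beside -0.03 over all expressed genes. By the 2-fold limit 8 were higher (10.6% of all expressed genes) and 2 lower (9.68%). The pathway lists were chosen with earlier results of these data known, so their counts and medians are description only. CDH2, FLRT2 and SDC2 passed the minimum level through ZDR3 alone, and so had to be higher there. Over the 10 genes that passed in both libraries the median was 0.78, with 5 higher and 2 lower. Of all 12526 genes that passed in both, 8.18% were higher and 7.66% lower. CDH2, the N-cadherin that can associate with FGFR1, was at 58.4 in ZDR3 and 0.672 in parental cells (5.15). GPC4, a heparan sulfate proteoglycan of the membrane, was at 82.3 in ZDR3 and 2.76 in parental cells (4.47). FLRT2 and FLRT3 belong to a family of transmembrane proteins that bind FGF receptors. FLRT2 was at 6.66 in ZDR3 and 0.833 in parental cells (2.06), and FLRT3 at 42.7 and 10.5 (1.93).

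The list also went the other way in part. The secreted proteoglycan HSPG2, perlecan, was at 67.0 in ZDR3 and 209 in parental cells (-1.63), and SDC1, the main syndecan of epithelia, at 131 and 299 (-1.18). SDC4 was at 215 in ZDR3 and 275 in parental cells (-0.35). The other genes past the limit upward were SDC2 (1.69), SDC3 (1.55), GPC1 (1.41) and FLRT1 (1.24). With these 3 genes lower, the summed level of the list was 746 in ZDR3 and 862 in parental cells, although most expressed members were higher.

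Enzymes that build and edit heparan sulfate had a median log2 ratio of 0.33 over 19 expressed of 23 listed genes, and by the 2-fold limit 7 were higher (10.6% of all expressed genes) and 2 lower (9.68%). HS3ST3A1 and HS3ST3B1 passed the minimum level through ZDR3 alone and SULF2 through parental cells alone. Over the 16 genes that passed in both libraries the median was 0.17, with 5 higher (8.18% of all such genes) and 1 lower (7.66%). The lower one was GLCE, the epimerase of the chains, at 7.48 in ZDR3 and 17.7 in parental cells (-1.14). SULF2, an endosulfatase that removes 6-O-sulfate from the chains, had 5 reads in ZDR3 and 2984 in parental cells. Its levels were 0.0363 in ZDR3 and 20.9 in parental cells (log2 ratio -4.40), which put it 575-fold lower in ZDR3 with a counting interval of 246 to 1772. SULF1, the other endosulfatase, was at 7.67 in ZDR3 and 3.14 in parental cells (1.06). Per kb of exon SULF1 was above SULF2 in ZDR3, at 0.815 and 0.00546, and below it in parental cells, at 0.334 and 3.14.

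HS3ST3B1, a 3-O-sulfotransferase, was at 11.7 in ZDR3 and 0.322 in parental cells (3.27), and its close relative HS3ST3A1 at 1.76 and 0.0840 (1.35). The coding sequences of this pair are very alike in part, so their reads may be shared. B3GALT6, which helps build the linker of the chains, was at 32.8 in ZDR3 and 14.0 in parental cells (1.17). A further 4 sat just over the limit: NDST1 (1.05), HS2ST1 (1.05), HS6ST1 (1.02) and SULF1. HS3ST1 lay just under it, with a plain ratio of 2.04 that the added unit lowered.

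In the cascade below the adaptors, all 23 listed genes were expressed and 21 of them were within 2-fold, beside 79.7% of all expressed genes. The median log2 ratio was -0.19, with 1 gene higher and 1 lower by the 2-fold limit (10.6% and 9.68% of all expressed genes). PLCG1, the phospholipase that FGF receptors bind directly, was at 140 in ZDR3 and 62.8 in parental cells (1.14). STAT3, a transcription factor that several receptor kinases activate, was at 223 in ZDR3 and 587 in parental cells (-1.39). MAP2K1, a kinase that activates ERK, was at 48.7 in ZDR3 and 89.0 in parental cells (-0.86), and PIK3CA, a catalytic subunit of PI3K, at 21.3 and 35.9 (-0.73). GRB2, which docks on FRS2, was at 493 in ZDR3 and 406 in parental cells (0.28).

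Feedback and output genes of FGF signalling did not move in 1 direction. Of 20 expressed genes 4 were higher (10.6% of all expressed genes) and 3 lower (9.68%) by the 2-fold limit and 13 were in neither class, and the median log2 ratio was -0.11. Many of them also answer to EGFR and other receptors through ERK. The ERK phosphatase DUSP6 was at 7.05 in ZDR3 and 44.9 in parental cells (-2.51). The Sprouty feedback inhibitors split: SPRY1 was lower (-1.65, at 4.803 in ZDR3 and 17.2 in parental cells), SPRY3 had a log2 ratio of -1.04, SPRY2 one of -0.49, and SPRY4 was higher (1.04, at 19.96 and 9.22).

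The ETS factors that FGF signalling induces in many tissues were within 2-fold. ETV5 was at 111 in ZDR3 and 113 in parental cells (-0.02), ETV1 had a log2 ratio of 0.20 and ETV4 one of -0.46. MYC (1.58), the AP-1 subunit FOSL1 (1.43) and the immediate early gene EGR1 (1.07) were higher. IL17RD, a membrane inhibitor of FGF receptor signalling, was at 13.2 in ZDR3 and 18.4 in parental cells (-0.44).

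**Figure D4:**
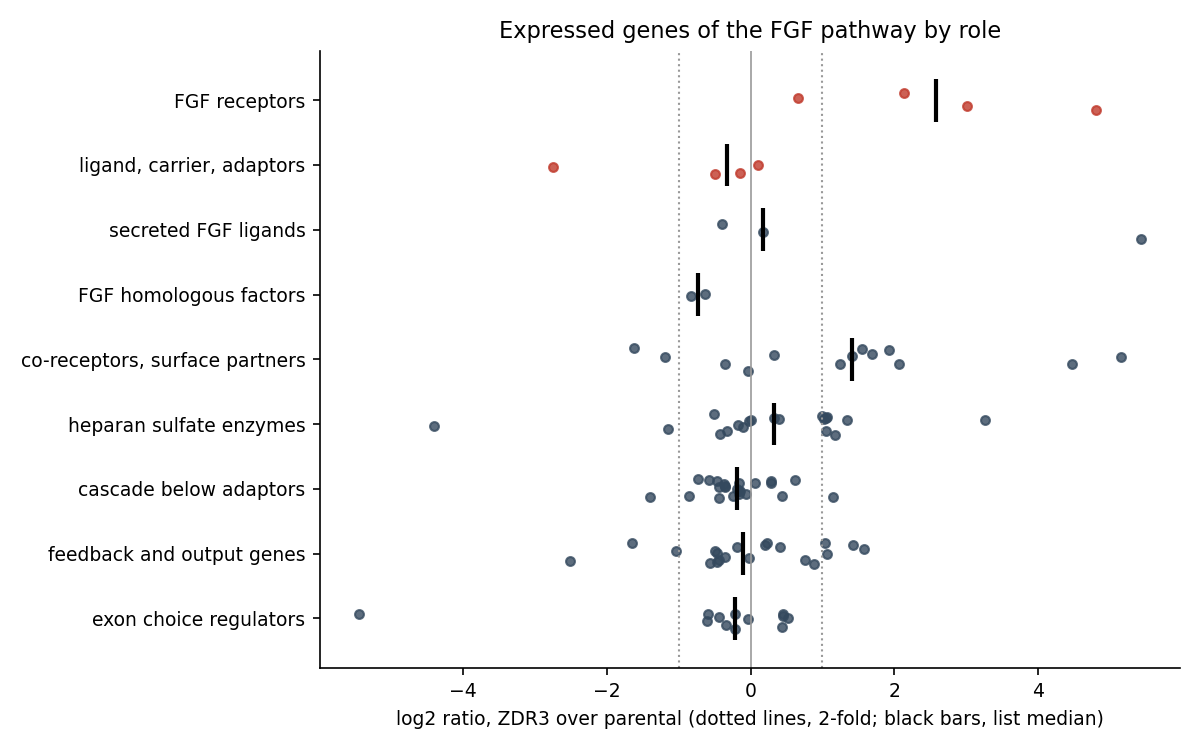
Log2 ratios, ZDR3 over parental, of the expressed genes of the FGF pathway by role (points), with the list median as a black bar and dotted lines at 2-fold. The receptors (median 2.58) and the co-receptors and surface partners (1.41, or 0.78 over those expressed in both libraries) lie to the right, while the cascade (-0.19) and the feedback and output genes (-0.11) centre near 0.

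FGFR1, FGFR2 and FGFR3 are each made in epithelial and mesenchymal forms through a choice between a pair of exons, which sets the ligands they bind. The values are per gene, so these forms were not measured. Of 12 genes that regulate such exon choices 1 was lower and 0 higher by the 2-fold limit, near the 9.68% of all expressed genes that were lower, and the median log2 ratio was -0.22. ESRP1, which favours the epithelial exon, was at 28.9 in ZDR3 and 1305 in parental cells (-5.45), 45.1-fold lower with a counting interval of 43.7 to 46.5. Its relative ESRP2 was at 51.7 in ZDR3 and 60.4 in parental cells (-0.22). PTBP1 (-0.60), HNRNPF (-0.59) and HNRNPM (0.52), which also act on these exons, were within 2-fold.

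The expressed genes whose log2 ratio lay nearest to that of FGFR1 were sought among 3871 with a level of at least 100 in either library. Over 2 libraries this likeness is the difference of log2 ratios and nothing more. The 5 nearest were the metalloprotease ADAMTS1 (4.75, differing by 0.060), the cytokine IL32 (4.67, by 0.14), the matrix protein THBS1 (5.04, by 0.24), the collagen COL18A1 (4.49, by 0.32) and the phosphatase subunit PPP2R2C (5.20, by 0.39). COL18A1 was at 6821 in ZDR3 and 303 in parental cells.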

How the data were processed

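Polyadenylated RNA from 1 ZDR3 and 1 parental HCC827 culture was sequenced on an Illumina instrument, per the labels' protocols. The submitters' processing notes name TopHat. Neither the aligner version nor the genome build, counter or strand setting is given in the sources used here.

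Values were deposited by the authors as 1 log2 number per gene and library, under a name that calls them RPKM. Back-transformed, they were whole multiples of 1 step per library wherever this was checked: 100% of genes with 1 to 100000 reads came out whole within 0.1 read. Larger values, such as that of FGFR1 in ZDR3, were not checked, and all read numbers are inferred from the step. The deposited values were thus taken as reads times a library factor, not divided by length. Genes at the lowest value (0.9 reads) were set to 0.

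The pseudocount and minimum level were 1 unit, and a gene was called at a log2 ratio of 1 or more in size. Counting intervals are exact 95% binomial (Clopper-Pearson, scipy 1.17.1). Intervals and floors cover counting error only. No molecular identifiers are recorded, so PCR copies count as separate reads. No count-based test was run, as 1 library per group gives none. Exon lengths and gene order came from GENCODE 29 by Ensembl identifier, and 97.8% of expressed genes had a position. Alternatives were other pseudocounts, minimum levels, scalings, neighbour numbers and length correction.

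The 10 genes and the pathway lists were chosen with earlier results of these data known. Named were the 10 genes, up to 4 expressed genes per pathway list with the largest log2 ratio in size, the nearest neighbours of genes past the 2-fold limit, the 5 genes most like FGFR1, and EGFR. Others named, such as CDHR2, C8orf4, NUDT6, the other marker genes, SDC2, GLCE, KLB's ligand FGF19, GRB2, HSPG2, the syndecans, GPC1, FLRT1, SULF1, NDST1, HS2ST1, HS6ST1, HS3ST1, SPRY2 to SPRY4, the ETV genes, EGR1, IL17RD and ESRP2, were chosen after their values were seen.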

Additional observations from a re-analysis of the deposited data

How the results depend on the processing

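The counts over the 10 genes, 3 at least 2-fold higher and 1 lower, were the same under every pseudocount, minimum level, scaling and length correction tried. The log2 ratio of FGFR1 ranged from 4.58 to 4.84, that of FGFR3 from 2.67 to 3.11 and that of FGFR4 from 2.09 to 2.17. That of FGFBP1 ranged from -5.55 to -1.12. KLB reached 1.13 and FGFR2 -1.48 with a pseudocount of 0.1, both below the minimum level. No called value changed sign, but none could, since the added unit and the length treat both libraries alike and the scaling factors were only 1.02. With a pseudocount of 5, all expressed genes at least 2-fold higher were 901 and lower 865, the co-receptors higher 5, the heparan sulfate genes higher 2 and lower 1, and the feedback genes higher 2. With levels per kb, which change both the genes that pass the minimum and the weight of the added unit, these were 902 higher among all genes, 5, 3 and 1, and 2. By the longest coding transcript, an alternative chosen after seeing the data, FGFR1 held 69.5% of the kinase receptor sum in ZDR3 and 27.7% in parental cells, and FGFR4 25.8% and 65.8%. Leaving out a library was not possible with 1 per group. No paired analysis was possible because each group held 1 library. Depth limits FGFR2, KLB and the ZDR3 values of FGFBP1 and SULF2, which rest on few reads.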
